A study of Homo sapiens with 6 samples.

Results

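RBBP9, LRRC58, PPTC7, GSKIP, YOD1, CPD, EEIG2 and MTPN were 8 genes, out of 19053 gene symbols in the table. Each was picked for a large rise of an accession in K562 cells carrying a short hairpin RNA against lncRNA-IUR-5. They were selected on the measured difference between these same libraries, so their fold changes are given as a description with no test, and nothing is supported by them. K562 is an established human line of Bcr-Abl-positive chronic myeloid leukaemia in blast crisis with an erythroid character. The study asked which genes move when lncRNA-IUR-5, a long noncoding RNA induced by imatinib, is depleted. Each group had 3 libraries of stable lentiviral lines, the sh-luc lines carrying a hairpin against luciferase in the same vector, without imatinib or another agent stated for these libraries. The labels name the target lncRNA-IIRX, and 1 hairpin sequence stands for the knockdown. Rows were protein-coding accessions, and the level of the lncRNA itself was not analysed here.

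The 8 proteins have separate jobs. RBBP9 is a serine hydrolase first described as a partner of the retinoblastoma protein, the brake on entry into the cell cycle. PPTC7 is a mitochondrial phosphatase of the PP2C type that holds back the mitophagy receptors BNIP3 and BNIP3L. GSKIP ties the kinase GSK3B to protein kinase A. YOD1 is a deubiquitinase of the OTU family that works with the ATPase VCP when misfolded proteins leave the endoplasmic reticulum. CPD is a membrane carboxypeptidase of the trans-Golgi network that trims peptides cut by furin-like proteases. MTPN, also called myotrophin or V-1, is a small ankyrin-repeat protein that binds actin capping protein. EEIG2 is a paralogue of EEIG1, an adaptor in osteoclast signalling through RANK, and LRRC58 is a leucine-rich repeat protein.

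The hairpin itself is shown because its letters can be compared with the 3′ UTRs of the 8 genes. The target and its antisense, 5′ to 3′, carry in capitals the bases 14 to 20 of the target and, opposite them, bases 2 to 8 of the antisense, the stretch that would act as a seed.
sh-IUR-5 target: gctagtatcaggtTTAAATAg
sh-IUR-5 antisense: cTATTTAAacctgatactagc
The heptamer TTAAATA was found in the 3′ UTR of 7 of the 8 genes, with 13 sites in all and none in GSKIP. It lay in the 3′ UTR of 28.0% of 8818 genes with a reference transcript, most of which have shorter 3′ UTRs. The density was 0.394 sites per kilobase in the 8 genes and 0.253 over all genes. The heptamer holds only A and T, and the 3′ UTRs of the 8 genes were poorer in G and C. They had 32.4% to 38.3%, against a median of 42.3% over all genes, and the part of base composition was not tested. Such matches are letters only, and the part of any of them in the values below was not tested.

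Library totals ran from 21023739 to 31481109 reads, and library 1 of sh-IUR-5 was the deepest. All 11 K562 markers, among them GATA1 and the fetal globins, were at 1 RPKM (reads per kilobase of coding length, scaled to the library's total) or more in every library, with summed levels of 16200 to 16800 RPKM under sh-IUR-5 and 20300 to 22700 under sh-luc. Of 9 markers of other cell types, MS4A1 and MPO were at 0 in every library, whereas LYZ was at 78.4 to 94.7 and EPCAM at 85.5 to 110.0 RPKM. The 9 summed to 181 to 205 RPKM under sh-IUR-5 and 165 to 191 under sh-luc, and their part in the results was not tested. Libraries 2 and 3 of each group share a first number in their labels. Their counts differed less from each other (a chi-square per row of 1.74 after knockdown and 2.25 for the controls, where 1 is sampling noise) than either did from library 1 (3.71 to 6.55), so the spread between 3 libraries may be partly technical. With edgeR's quasi-likelihood test, 37.3% of 38204 accessions with a mean of at least 1 RPKM had an adjusted p under 0.05. Taking for each gene the accession with the most reads, 22.3% of 8944 genes were higher and 23.4% lower in sh-IUR-5.

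In the accession with the most reads, all 8 genes had their 3 sh-IUR-5 libraries above their 3 sh-luc libraries, which also held for 26.8% of the 8944 genes. Because the genes were chosen on this contrast, that count says nothing more about them. In the accession with the most reads, their folds ran from 4.84 for RBBP9 to 2.15 for MTPN, after TMM scaling. TMM scaling sets the bulk of genes to no change. With reads summed over its 4 accessions, GSKIP had a fold of 1.61, below that range. RPKM is scaled to total reads, so ratios of RPKM are larger than these folds. In bulk libraries, more cells with a transcript and more transcript per cell cannot be told apart.

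RBBP9 had the largest log2 fold change of the 8944 genes and the fewest reads of the 8. Its single accession (NP_006597.2) had 27, 23 and 33 reads after knockdown and 3, 8 and 1 in the controls. In RPKM this was 1.86 ± 0.451 (SD, n = 3) against 0.328 ± 0.304 (SD, n = 3). The log2 fold change was 2.28 (SE 0.44), and in RPKM the lowest sh-IUR-5 library was 2.29 times the highest sh-luc library. Pooled over libraries, 83 reads against 12 gave a ratio per total reads of 5.64, with an exact 95% interval of 3.06 to 11.4 that covers counting error only. Leaving out sh-luc library 2, which held 8 of the 12 control reads, moved the log2 fold change to 3.26, and leaving out sh-luc library 3, with 1 read, moved it to 1.85. Only 2.46% of the genes had a lower mean level.

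LRRC58 (NP_001093148.1) had 105, 66 and 57 reads against 12, 21 and 18 in the controls. Its level was 2.49 ± 0.466 against 0.704 ± 0.218 RPKM (SD, n = 3 each), a log2 fold change of 1.65 (SE 0.24). In sh-luc both RBBP9 and LRRC58 averaged under the minimum of 1 RPKM, so they entered the fit through the group in which they were high.

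PPTC7 (NP_644812.1), the mitochondrial phosphatase, had 171, 115 and 126 reads against 29, 37 and 31. Its levels were tight, at 5.94, 5.17 and 5.56 RPKM after knockdown and 1.36, 1.90 and 1.61 with the control hairpin. The log2 fold change was 1.59 (SE 0.16), and the spread among the 3 sh-IUR-5 libraries (4.79% of their mean after TMM scaling) was below the 8.53% that counting alone would give.

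EEIG2 and MTPN had the highest levels of the 8. EEIG2 (NP_001010883.2) had 984, 489 and 530 reads against 269, 172 and 187 for sh-luc, or 28.9, 18.6 and 19.8 against 10.7, 7.45 and 8.21 RPKM. Library 1 was the highest of its group in both arms. Its log2 fold change was 1.16 (SE 0.15). MTPN (NP_665807.1) had 98.6, 77.6 and 83.1 RPKM in sh-IUR-5, from 1108, 674 and 734 reads, and 34.6, 35.3 and 35.4 RPKM in sh-luc, from 288, 269 and 266 reads. The 3 sh-luc values of MTPN differed by less than counting would give (1.31% against 6.04% of the mean, after TMM scaling). Its log2 fold change was 1.11 (SE 0.10).

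**Figure D1:**
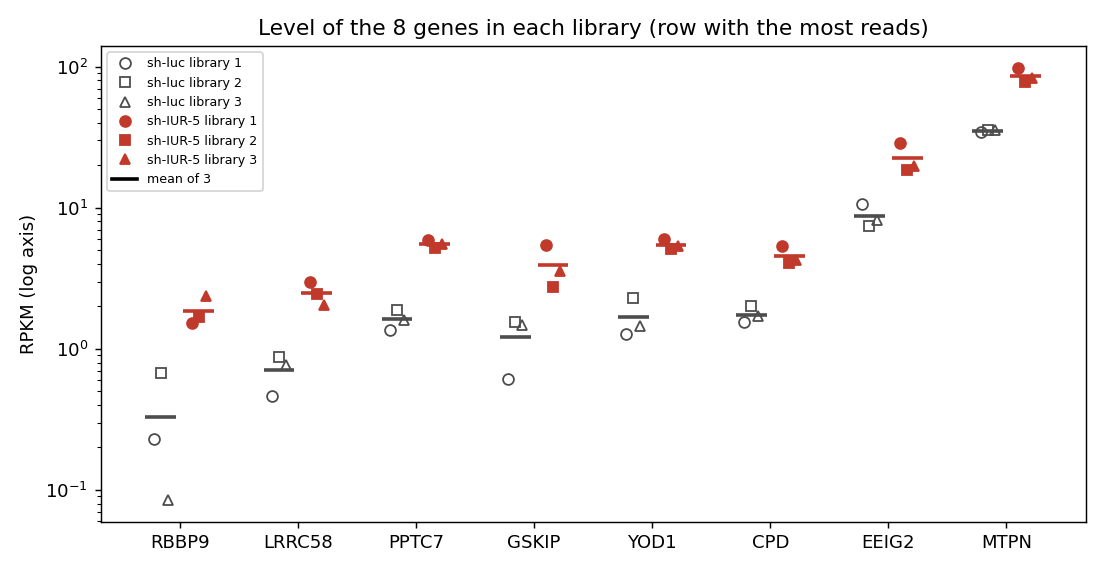
RPKM on a log axis of the 8 genes in each of 3 sh-luc libraries (open grey) and 3 sh-IUR-5 libraries (filled red), in the accession with the most reads, with bars at the mean of 3. The groups do not overlap in any of the 8, the control values of RBBP9 spread from 0.0848 to 0.669 RPKM, and MTPN lies highest at 77.6 to 98.6 RPKM in sh-IUR-5.

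The remaining 3 genes had several accessions, and they differed in how well these agreed. CPD agreed best. Its accession NP_001295.2 had 698, 408 and 440 reads against 149, 177 and 149, and NP_001186704.1 had 559, 356 and 381 against 126, 118 and 115. The log2 fold changes were 1.19 (SE 0.12) and 1.35 (SE 0.11), and 1.25 (SE 0.10) with the reads summed. A stretch of 266 coding bases of CPD matches another annotated gene, ENSG00000231353, at 90.2% identity, and reads there are uncertain.

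The 2 accessions of YOD1 lay further apart. NP_061036.3 had 197, 130 and 139 reads against 31, 51 and 32, a log2 fold change of 1.53 (SE 0.18). NP_001263249.1 had 152, 108 and 91 against 37, 49 and 48, a log2 fold change of 0.89 (SE 0.17). Both kept the groups apart, and the sum gave 1.20 (SE 0.16), which placed YOD1 at 45 of 10392 genes instead of 5 of 8944. YOD1 lies on the opposite strand of PFKFB2, a kinase and phosphatase of fructose 2,6-bisphosphate, and shares 173 exonic bases with it. PFKFB2 had 132, 73 and 75 reads against 38, 26 and 25 (log2 fold change 1.09, SE 0.19). Whether counting used strand was not stated, so reads of the shared stretch cannot be told apart.

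GSKIP agreed least. NP_001258835.1 had 72, 28 and 37 reads against 6, 14 and 13, a log2 fold change of 1.53 (SE 0.33). NP_001258834.1 and NP_057556.2 gave 0.82 (SE 0.26) and 0.60 (SE 0.26). NP_001258833.1 had 50, 24 and 19 reads against 21, 25 and 20, with overlapping groups and a log2 fold change of -0.01 (SE 0.27). All 4 accessions have 420 coding bases, and the 4 GENCODE transcripts of that coding length use a single set of coding blocks, so these rows describe the same coding sequence. The first took 31.0% of the gene's reads with sh-IUR-5 and 17.4% with sh-luc, and NP_001258833.1 took 21.0% and 34.7%. Summed, GSKIP had 218, 106 and 118 reads against 60, 65 and 65. The log2 fold change of the sum was 0.68 (SE 0.19), at 693 of 10392 genes. Over all 13 accessions of the 8 genes, 12 kept the groups apart, beside 25.0% of accessions tested.

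By log2 fold change the accessions with the most reads stood at places 1 to 5 for RBBP9, LRRC58, PPTC7, GSKIP and YOD1, and at 40, 54 and 68 for CPD, EEIG2 and MTPN. Just below YOD1 came THAP6 at 1.49 (SE 0.39), GNA13 at 1.47 (SE 0.21) and MMGT1 at 1.46 (SE 0.19). Among 2703 genes with a mean of at least 20 RPKM, MTPN was at place 2, and among 3975 genes with at least 10 RPKM, EEIG2 was at place 3 and MTPN at 5. Summing reads left RBBP9 at place 1 of 10392 genes but put GSKIP at 693.

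Library 1 of sh-IUR-5 was the highest of its group in 7 of the 8 genes, all but RBBP9. That held for 49.6% of genes that passed the test as higher and 39.0% of all genes. The ratio of sh-IUR-5 to sh-luc was larger within the libraries numbered 1 than within libraries 2 and 3 for 8 of 8 genes, beside 74.7% of genes that passed the test as higher and 52.0% of all genes. For GSKIP the log2 ratios were 2.92 and 0.88, for LRRC58 2.46 and 1.27, for YOD1 2.0 and 1.31, for PPTC7 1.89 and 1.44 and for CPD 1.56 and 0.99. For MTPN they were 1.28 and 1.01, for EEIG2 1.20 and 1.12 and for RBBP9 2.50 and 2.25.

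A property that the choice of genes did not use was the length of the untranslated end. A 3′ UTR is the part of a messenger RNA after the stop codon, where microRNAs and AU-rich element proteins bind. The 3′ UTRs of the 8 genes were 1604 to 6691 bases long in the MANE Select transcripts of GENCODE 44, with a median of 3980 against 1091 over 8818 genes. All 8 were over that median and 7 were above the third quartile. The coding sequences were not long, with only CPD (4143 bases) over the median of 1242.

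LRRC58 had the longest 3′ UTR, 6691 of 7918 transcript bases (hg38 chr3:120324509-120349354, minus strand). CPD had 5175 of 9372 bases (chr17:30378927-30469989, plus) and YOD1 5171 of 6396 (chr1:207043849-207051208, minus). EEIG2 had 4172 of 5584 bases (chr1:108560100-108639322, plus) and PPTC7 3792 of 4994 (chr12:110533245-110583318, minus). RBBP9 had 3224 of 3843 bases (chr20:18486540-18497225, minus) and MTPN 3166 of 3782 (chr7:135926760-135977359, minus). GSKIP was the shortest, with 1604 of 2169 bases (chr14:96363526-96387288, plus). The 3′ UTR made up 55.2% of the transcript in CPD and 74.0% to 84.5% in the others, against a median of 42.2%.

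The 3′ UTRs were also AU-rich, with 32.4% to 38.3% G and C against a median of 42.3%. The pentamer ATTTA, the core of AU-rich elements, occurred 4 times in RBBP9, 5 in GSKIP, 12 in MTPN, 13 in CPD and EEIG2, 16 in YOD1, 20 in LRRC58 and 24 in PPTC7, against a median of 2. Per kilobase the median was 3.10 in the 8 genes and 1.57 over all, and RBBP9, at 1.24, was below it.

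Long 3′ UTRs went with higher values over all genes as well. Across the 8818 genes Spearman's rho of 3′ UTR length with log2 fold change was 0.47, and genes are not independent replicates. The median log2 fold change was -0.27 for 2539 genes with a 3′ UTR under 500 bases, of which 2.28% were higher and 45.7% lower. It was 0.25 for 1078 genes with 2000 to 3000 bases, of which 42.1% were higher and 11.2% lower, and which hold none of the 8. It did not go on climbing, at 0.21 for 1048 genes with 3000 to 5000 bases (37.9% higher), which hold 4 of the 8, and 0.22 for 591 longer ones (37.6% higher), which hold 3. The 1807 genes with at least 1500 bases and under 40% G and C include all 8 genes, and 47.3% of them were higher and 10.5% lower. RPKM is per coding length, and whether reads over UTRs were counted is not given in the sources used here. Library quality, such as RNA integrity, was not given in the sources used here, and its part was not tested.

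Removing the trends lowered the 8 values, each for the accession with the most reads. The genes were chosen for values far above the class medians, so what remained says nothing about the part of the trends, which was not tested. The summed reads of GSKIP were not refitted this way. With a trend on 3′ UTR length taken out, log2 fold changes were 2.05 for RBBP9, 1.46 for LRRC58, 1.36 for PPTC7 and GSKIP, 1.32 for YOD1, 0.98 for CPD, 0.93 for EEIG2 and 0.87 for MTPN. With trends on GC content and transcript length taken out they were 2.02, 1.35, 1.30, 1.46, 1.20, 0.95, 0.83 and 0.84 in the same order of genes. In that fit RBBP9 was at place 1, GSKIP at 4, LRRC58 at 6, PPTC7 at 10, YOD1 at 18, CPD at 54, MTPN at 103 and EEIG2 at 109 of 8818. With scaling to total reads alone the median of all genes moved from -0.01 to 0.19 and the 8 values to between 1.30 (MTPN) and 2.47 (RBBP9).

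The partners and relatives of the 8 proteins were read from 10 lists with 110 tested genes, of which 35 were higher and 9 lower (edgeR quasi-likelihood test, adjusted p under 0.05), with a median log2 fold change of 0.14 against -0.01 over all genes. The higher share was 31.8%, beside 22.3% of all genes, and 23.4% of all genes were lower. The lists are small, so the counts below are read as descriptions. With scaling to total reads the same lists gave 61 higher and 2 lower, so directions are relative to the bulk of genes. After removal of the GC and length trends, 22 of the 35 and 4 of the 9 kept their call, and after removal of the 3′ UTR trend 21 and 2 did. RBL1, RBBP5, E2F3, TFDP1, PPM1H, PRKAR1A, OTUD6B, UBXN7, SEL1L and EEIG1 lost their higher call in both fits, and LRRC23, LRRC24, FKBP8, UBXN1 and SELENOS their lower call. The 35 higher genes had a median 3′ UTR of 2372 bases and the 9 lower genes one of 400.

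Around RBBP9, 8 of 13 genes of the retinoblastoma family and its partners were higher (61.5%, beside 22.3% of all genes) and 1 was lower. With the GC and length trends removed, 5 were higher and 1 lower. RB1 was at 4.99 ± 0.270 against 2.39 ± 0.240 RPKM (SD, n = 3 each), a log2 fold change of 0.87 (SE 0.11, edgeR adjusted p = 6.3e-06). RBL2, a pocket protein related to RB1, rose by 0.86 (SE 0.11, edgeR adjusted p = 1.18e-05). RBBP4, a histone-binding subunit of chromatin complexes, rose from 37.1 ± 0.248 to 59.3 ± 1.10 RPKM (SD, n = 3 each; log2 fold change 0.48). RBL1, RBBP5, E2F1, E2F3 and TFDP1 rose by 0.34 to 0.69. All of these but RB1, RBL2, RBBP4 and E2F1 lost their call with the GC and length trends removed, and E2F1 lost it with the 3′ UTR trend removed. RBBP6, a ubiquitin ligase, fell by 0.37 on the log2 scale, but lost its call under scaling to total reads.

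Around PPTC7, 4 of 11 PP2C-type phosphatases were higher (36.4%, beside 22.3% of all genes) and 1 lower. PPM1D, which switches off the p53 response, and PHLPP1, which acts on AKT, each rose by 0.53. PPM1F and PPM1H rose by 0.36 and 0.50, and PPM1G fell by 0.30 on the log2 scale. Of 7 tested mitophagy receptors and regulators, 1 was higher (14.3%, beside 22.3% of all genes) and 1 lower. BNIP3L rose by 0.57 (SE 0.10, edgeR adjusted p = 0.000261), from 17.0 ± 0.767 to 28.9 ± 3.76 RPKM (SD, n = 3 each), and FKBP8 fell by 0.30. BNIP3 did not pass the test, with a log2 fold change of 0.08. PPM1G and FKBP8 lost their call under scaling to total reads.

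Around GSKIP, 4 of 14 partners of GSK3 and protein kinase A were higher and none was lower, a higher share of 28.6% beside 22.3% of all genes, and 2 were lower with the GC and length trends removed. PRKAR2B, a regulatory subunit of protein kinase A, was the most abundant of these at 214 ± 19.1 against 116 ± 3.94 RPKM (SD, n = 3 each), a log2 fold change of 0.69 (SE 0.08, edgeR adjusted p = 3.55e-06). PRKAR1A rose by 0.49, and APC and CTNNB1, a scaffold and the substrate of the beta-catenin destruction complex, rose by 0.53 and 0.46. GSK3B did not pass the test, with a log2 fold change of -0.10.

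Around YOD1, 2 of 6 OTU deubiquitinases were higher (33.3%, beside 22.3% of all genes), VCPIP1 by 0.65 and OTUD6B by 0.51. Of 21 VCP cofactors and genes of endoplasmic reticulum degradation, 6 were higher (28.6%, beside 22.3% of all genes) and 3 lower, with a median log2 fold change of 0.03. The balance turned to 4 higher and 5 lower with the GC and length trends removed and to 2 and 5 with the 3′ UTR trend removed, and was 12 and 1 under scaling to total reads. Among the higher ones were NPLOC4 (0.48), UBXN7 (0.64), FAF2 (0.56), UBE4B (0.49) and SEL1L (0.55). UFD1, the obligate partner of NPLOC4 on VCP, fell by 0.34, UBXN1 by 0.48 and SELENOS by 0.28 on the log2 scale, but with the GC and length trends removed UBXN1 was at -0.09 and SELENOS at -0.03, without a call. Under scaling to total reads UFD1 and SELENOS lost their call, and VCP itself did not pass the test (log2 fold change 0.02).

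Around CPD, 3 of 14 carboxypeptidases and proprotein convertases were at a testable level. FURIN, the protease that cuts before basic carboxypeptidases act, rose by 0.48, and MBTPS1, the site-1 protease, by 0.52. Around EEIG2, 2 of 6 tested genes of its family and RANK signalling were higher (33.3%, beside 22.3% of all genes) and none was lower. GAB2, an adaptor in RANK signalling, rose by 0.82 (SE 0.18, edgeR adjusted p = 0.002), and EEIG1 by 0.49 (SE 0.16, edgeR adjusted p = 0.0251). RANK itself was not at a testable level. EEIG1 has 70.9% identity with EEIG2 over 477 aligned coding bases.

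Around MTPN, 4 of 9 genes of actin capping protein and its regulators were higher (44.4%, beside 22.3% of all genes) and none was lower. The alpha subunits CAPZA1 and CAPZA2 were at 90.0 ± 2.17 and 117 ± 5.44 RPKM with sh-IUR-5 and 53.5 ± 5.68 and 72.0 ± 2.31 with sh-luc (SD, n = 3 each), with log2 fold changes of 0.56 and 0.51. The beta subunit CAPZB did not pass the test, with a log2 fold change of -0.06, and the median of the 9 was 0.09. TWF1, twinfilin, which binds capping protein and actin monomers, rose by 1.04 (SE 0.14, edgeR adjusted p = 1.41e-05), and WASHC2C by 0.36 (edgeR adjusted p = 0.0431). WASHC2C lost its call with DESeq2 and with the GC and length trends removed, where it was at 0.14. Of 20 tested LRRC-named genes related to LRRC58 only by repeat type, LRRC40 (0.92) and LRRC57 (0.67) were higher. LRRC23, LRRC24 and LRRC45 fell by 0.66, 0.31 and 0.56 on the log2 scale, and of these LRRC45 alone kept its call under scaling to total reads.

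The profiles of the 8 genes over the 6 libraries were alike, with Pearson's r between pairs of 0.76 to 0.99 and a median of 0.94, as choice on the same contrast would give. Of 8936 other genes, 14.4% had r over 0.9 with their mean profile. The closest 5 were CIPC (r = 0.999, log2 fold change 0.78), GBE1 (0.999, 0.45), CCNG1 (0.998, 0.41), USP24 (0.998, 0.77) and UBA6 (0.997, 1.07).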

How the data were processed

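RNA-seq was made from K562 cells with sh-IUR-5 or sh-luc, 3 libraries each, grouped by the labels' titles. The authors deposited read counts and RPKM per RefSeq protein accession. RPKM was recomputed from the counts and matched. Row lengths are multiples of 3 in 99.8% of rows, so they are coding lengths. The submitters' processing notes name CASAVA 1.8, Trimmomatic 0.32, Bowtie2 2.1.0 and SAMtools 0.1.19 with hg38. How reads were divided among accessions of one gene, and whether strand was used, is not given in the sources used here. The authors' comparison columns (fold changes, p-values, q-values) were not used.

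Symbols were found for 64.7% of accessions. Counts were fitted with edgeR 4.0.16 (R 4.3.3; TMM, quasi-likelihood, two-sided, Benjamini-Hochberg over 38204 accessions whose mean RPKM reached 1; biological coefficient of variation 8.1%). DESeq2 1.42.0 was an alternative, and mgcv 1.9.3 gave the smooth trends that were removed. The fits were also run on data simulated with the same variation for every accession. Those data held no length, GC or label-series differences, so that run does not cover them. Transcript and 3′ UTR features come from MANE Select transcripts of GENCODE 44, and miRNA and promoter sequences (250 bases before to 50 after the start) from RefSeq. Counting intervals cover counting error only.

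The 8 genes, the 10 gene lists and the tests were chosen with earlier results of these data known. Genes named are the 8, the 3 just below the largest 5, every list gene past the threshold (except 1 that is not reported here), the 5 with the most similar profile, and markers. PFKFB2, EEIG1's identity, VCP, GSK3B, BNIP3, CAPZB and the level of RANK were named after their values were seen. Library totals were 21023739 to 31481109 reads. No sample was unassigned.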

Additional observations from a re-analysis of the deposited data

How the results depend on the processing

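Of 138 values of the 8 genes under other settings, 119 moved by less than 1 SD between replicates and 19 moved further. That SD is each gene's own, from 0.10 for MTPN to 1.09 for RBBP9 on the log2 scale, so large moves of RBBP9 count as small. None turned direction, as the choice of genes for a large rise would give. The 14259 accessions past the threshold became 7357 with a mean RPKM of at least 5, which tests fewer rows, 6922 with the GC and transcript length trends removed and 7277 with the 3′ UTR length trend removed. The trend fits use rows with a reference transcript, which gave 10028 with no trend removed, a setting added after seeing the data. DESeq2 gave 11171. Leaving out one library gave 11210 to 13582 accessions and 35 to 45 list genes in place of 44, with 5 to 9 of the 44 losing their call. Scaling to total reads put 80.1% of calls on the higher side (13203 higher, 3281 lower) against 51.4% (7335 and 6924). Same-numbered libraries deviated together with r = 0.30, 0.082 and -0.012. The 0.30 of the libraries numbered 1 was the largest of all pairs across the groups. Numbers 2 and 3 were not matched across the groups, and sh-luc library 2 went best with sh-IUR-5 library 3 (0.22). With a replicate block 16837 accessions and 53 list genes passed, and 9146 with the block and the GC and length trends removed. Library 1 of one group went against libraries 2 and 3 of the other (-0.26 to -0.07). Deviations from a group's mean cancel out within the group, so the r of 0.30 sets this on balance and it adds nothing. Libraries 2 and 3 share a label series. A block on that series, added after seeing the data, gave 17918 accessions and 56 list genes, and log2 fold changes of the 8 between 1.10 and 2.29. RBBP9 rests on 12 control reads, whose spread (93.2% of the mean) exceeds that of counting.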

Other observations

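Promoter sequences of 300 bases were found in RefSeq for 7 of the 8 genes. The STAT-type motif TTCNNNGAA was in none of the 7 and in 6.08% of 7420 promoters. TATAAA was in LRRC58 alone (5.62% of promoters), and CCAAT in YOD1 and CPD (38.5%). Both strands were searched, and a missing match says only that these letters are not in this window. The YOD1 promoter had 47.7% G and C, lower than all but 4.78% of promoters, while that of GSKIP had 74.7%.

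10 common blood-cell miRNAs were looked up, a list chosen after values were seen and given no test. Over the 10, a site was in 1 to 6 of the 8 genes. Shown are 3 picked for a density above that of all genes, 5′ to 3′, with the seed, bases 2 to 8, in capitals.
hsa-miR-181a-5p: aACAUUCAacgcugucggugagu
hsa-miR-30a-5p: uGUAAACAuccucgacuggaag
hsa-miR-21-5p: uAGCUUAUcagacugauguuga
A site for the miR-181a seed was in the 3′ UTR of 6 of the 8 genes and in 19% of all genes, at 0.273 against 0.143 sites per kilobase. One for miR-30a was in 5 of the 8 and 16.5% of all genes, at 0.212 against 0.114 sites per kilobase. One for miR-21 was in YOD1 (3 sites) and MTPN (2 sites) and in 8.65% of all genes, at 0.152 against 0.0556. Most genes have shorter 3′ UTRs than these 8, so the shares of genes with a site are not compared at equal length. Densities were also above those of all genes for let-7a, miR-17, miR-19b, miR-26a and miR-144, so this trait was not particular to the miRNAs shown. For miR-16 the density was close to that of all genes, 0.182 against 0.185 per kilobase, and for miR-92a it was lower, 0.0303 against 0.0746.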
